A study of Homo sapiens with 6 samples.

Results

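The genes described are 10 ETS transcription factors, ETV1, ETV4, ETV5, ELK1, ELK3, ELK4, ETS1, ETS2, ETV6 and ERF, chosen by symbol from the 28395 genes of the expression table. The rule uses symbols and no expression value, and all 10 passed the filter on low values (a mean signal of at least 10 over the libraries), which kept 14215 genes. RNA was sequenced from HCC827, an established line of human lung adenocarcinoma cells whose EGFR carries an activating deletion, so that the receptor kinase signals without its ligand. The cells were kept in RPMI medium with serum, an antibiotic and antimycotic solution and an agent against mycoplasma, and were exposed for 24 h either to the vehicle DMSO (3 libraries) or to 1 μM erlotinib, an inhibitor of the EGFR tyrosine kinase (3 libraries). All the libraries came from this single line, the vehicle group received no inhibitor, and nothing in the sample descriptions says whether the libraries of a group came from separate cultures, so the p-values measure the spread between these libraries, which may be technical. The libraries are named DMSO 1 to 3 and erlotinib 4 to 6, after the columns of the table.

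ETS factors share a winged helix-turn-helix domain that binds DNA around a GGAA core. Many of them lie at the end of the RAS-ERK cascade, which EGFR activates: ERK phosphorylates the PEA3 group (ETV1, ETV4, ETV5), the ternary complex factors that bind with SRF (ELK1, ELK3, ELK4) and ETS1 and ETS2, while the repressor ERF leaves the nucleus when ERK phosphorylates it. Transcription of the PEA3 genes is repressed by CIC, and ERK signalling is known to relieve that repression, while in lung ETV5 is known for its part in alveolar type II cells.

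The values are signal, the reads of a gene divided by a size factor of its library. The libraries held 20858083, 24641819 and 21172884 reads on genes with DMSO, and 21944007, 20760204 and 21678395 reads with erlotinib. Sampling noise did not account for all of the difference between libraries of a condition. The chi-square per degree of freedom between a pair was 24.3 for DMSO 1 and DMSO 2, the pair that differed most, 7.96 and 15.2 for the other DMSO pairs, and 4.13 to 6.08 for the erlotinib pairs.

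The cells had the RNA of epithelial lung tumour cells in both conditions. EPCAM, an epithelial adhesion molecule, had a signal of 9852 ± 235 (SD, n = 3) with DMSO and 9485 ± 281 (n = 3) with erlotinib. NKX2-1, the lineage factor of lung epithelium, was 3002 ± 209 with DMSO and 8644 ± 408 with erlotinib, and NAPSA, a protease of alveolar cells, was 986 ± 74.9 and 3733 ± 156 (n = 3 each). The surfactant gene SFTPB, the remaining marker of that list, was at 3.71 to 12.2 in the libraries. The 3 keratins of the epithelial list, KRT8, KRT18 and KRT19, fell, and EPCAM and CDH1 did not pass the test. CDH1 (0.14, limma adjusted p = 0.053) was called higher by edgeR and DESeq2 (adjusted p 0.023 and 0.016), in limma with TMM factors (0.025), a pseudocount of 0.1 (0.046) or libraries scaled to total reads (0.32, adjusted p 9e-05), and without DMSO 2 (0.0035). KRT8 has a near-identical sequence elsewhere in the genome and overlaps KRT18, and NKX2-1 overlaps SFTA3 and NKX2-1-AS1, so their values are uncertain.

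Markers of other cells summed to little. The 5 endothelial markers together had a signal of 34.0, 15.8 and 24.6 with DMSO and 58.1, 46.5 and 48.7 with erlotinib. Most of that difference was VWF (3.94 ± 3.32 with DMSO and 27.4 ± 6.93 with erlotinib, n = 3 each). CDH5 was at 11.3, 0 and 0 with DMSO and 10.2, 7.92 and 12.2 with erlotinib, PECAM1 was at 8.91 to 19.3, and KDR and TEK stayed at or under 4.28 in every library. The 5 fibroblast markers summed to 71.5 to 103 with DMSO and 197 to 251 with erlotinib, nearly all of it COL1A1 (77.7 ± 15.3 and 216 ± 27.9, n = 3 each), while COL1A2 did not exceed 1.86 and DCN did not exceed 2.77. The 5 blood markers summed to 6.5 to 36.4 with DMSO and 11.9 to 34.1 with erlotinib. CD14, which overlaps TMCO6, a gene with more reads, had the highest mean of them over the 6 libraries, and PTPRC did not exceed 5.62. The endothelial and fibroblast sums were higher with erlotinib, and their part in the results was not tested.

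With erlotinib, 7 of the 10 ETS factors fell, 1 rose and 2 did not pass the test at an adjusted p-value under 0.05 (limma on log2(signal + 1), Benjamini-Hochberg over all genes tested). ETV1, ETV4 and ETV5 kept 3.15%, 7.78% and 5.1% of their DMSO level, ETS1 kept 38.3%, ELK1, ELK3 and ETS2 fell by less, and ETV6 rose. ELK4 and ERF were neither. Erlotinib changed most of the transcriptome: 35.4% of all tested genes were lower and 35.3% were higher by the same test, 70.7% in either direction, so that falling or rising alone sets a gene little apart. With libraries scaled to their total reads, 3955 of all tested genes were lower and 6156 were higher, in place of 5031 and 5012. A fall of at least 1 log2 unit was rarer. It was called in 10.8% of all tested genes, and in 4 of the 10 factors. A rise of that size was called in 17% of all tested genes and in 1 factor. The median log2 fold change of the 10 factors was −0.80, and that of all tested genes was 0.02. In 8 of the 10 the DMSO and erlotinib libraries did not overlap, against 73.6% of all tested genes. In RNA from whole cultures, fewer cells that express a gene and less RNA per cell cannot be told apart.

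**Figure D1:**
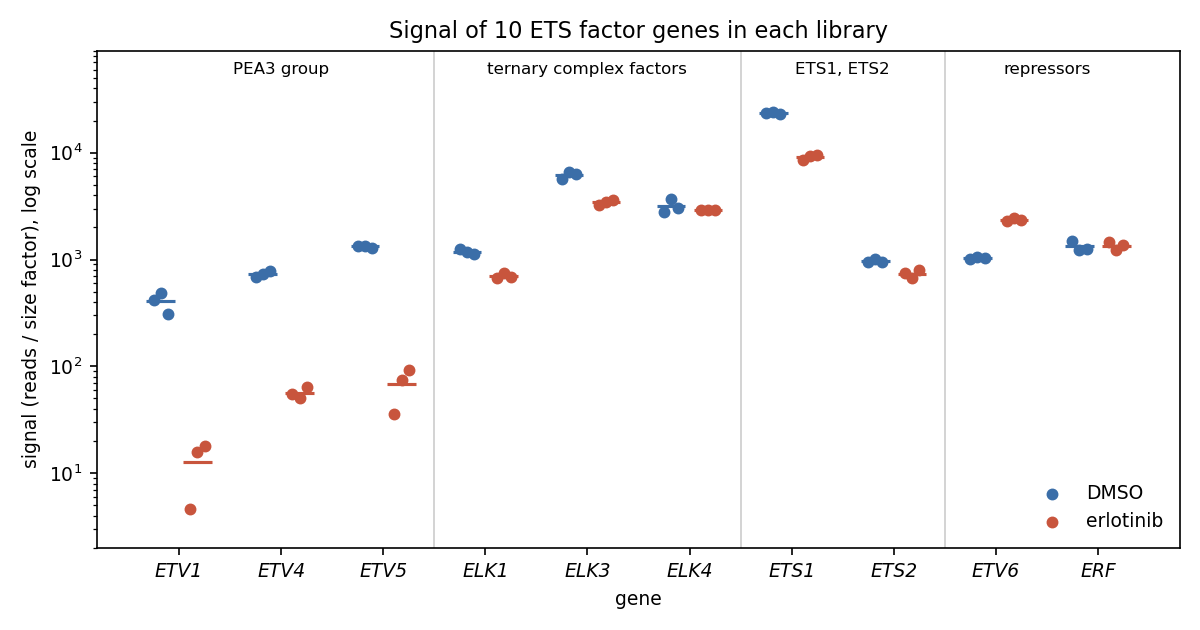
Signal of the 10 ETS factors in each library (log10 axis, reads divided by the size factor), with 3 DMSO and 3 erlotinib libraries as points and the group means as bars. The erlotinib points of ETV1, ETV4 and ETV5 lie between 4.61 and 92.7, below every DMSO point of these genes (309 to 1347), those of ETV6 lie above its DMSO points, and those of ELK4 and ERF overlap.

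The PEA3 group fell furthest. ETV5 (Entrez 2119, chr3:186046314-186109089), a factor of branching lung epithelium and alveolar type II cells, had a signal of 1347, 1343 and 1293 with DMSO and 36.0, 74.3 and 92.7 with erlotinib. Every erlotinib library lay far below every DMSO library, and among the erlotinib libraries number 4 was the lowest. The mean went from 1327 ± 30.0 to 67.6 ± 28.9 (SD, n = 3 each), 5.1% of the DMSO level, a 19.6-fold fall. On the log2(signal + 1) scale the change was −4.38 (SE 0.22, 95% interval −4.83 to −3.92, limma adjusted p = 2.6e-13).

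ETV4 (Entrez 2118, chr17:43527846-43546340), the founding PEA3 protein, had a signal of 685, 724 and 781 with DMSO and 55.4, 50.5 and 64.6 with erlotinib. The groups did not overlap, and the erlotinib values lay closer together than those of ETV5. The mean went from 730 ± 48.3 to 56.8 ± 7.16 (SD, n = 3 each), 7.78% of the DMSO level and a 12.9-fold fall, with a log2 fold change of −3.67 (SE 0.15, 95% interval −3.98 to −3.35, limma adjusted p = 1.1e-14). The gene overlaps DHX8, an RNA helicase gene, and whether strand was used in counting is not given in the sources used here. DHX8 had a signal of 1988 ± 184 with DMSO and 1637 ± 109 with erlotinib (n = 3 each), a log2 fold change of −0.28 (limma adjusted p = 0.0051).

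ETV1 (Entrez 2115, chr7:13891229-13991425), an oncogene in prostate cancer and gastrointestinal stromal tumours, was the scarcest of the 10 factors. Its signal was 422, 484 and 309 with DMSO and 4.61, 15.8 and 17.8 with erlotinib. The erlotinib values rest on 5, 16 and 19 reads, and erlotinib 4 was the lowest here too. The mean of 405 ± 88.5 with DMSO went to 12.7 ± 7.11 with erlotinib (SD, n = 3 each), 3.15% of the DMSO level and a 31.8-fold fall. The log2 fold change was −5.04 (SE 0.35, 95% interval −5.77 to −4.32, limma adjusted p = 4.6e-11), and it lay between −5.36 and −4.49 when any 1 library was left out. With a pseudocount of 10 it was −4.22, close to the −4.18 of ETV5 with that pseudocount.

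Among the 14215 tested genes ordered from the most negative log2 fold change, ETV1 was in place 3, ETV5 in place 7 and ETV4 in place 23. ETS1 came in place 853, ELK3 in place 2071, ELK1 in place 2483 and ETS2 in place 4347, while ETV6 was in place 2055 from the other end. Within the PEA3 group the log2 ratios between members, taken on signal + 1, differed between the conditions as well. The log2 ratio of ETV4 to ETV5 was −0.86 ± 0.13 with DMSO and −0.15 ± 0.66 with erlotinib, and its values did not overlap between the groups. Erlotinib 4 stood apart with a log2 ratio of 0.61, against −0.55 and −0.51 in the other erlotinib libraries. The log2 ratio of ETV1 to ETV5 was −1.73 ± 0.30 with DMSO and −2.40 ± 0.29 with erlotinib (n = 3 each). That of ETV1 to ETV4 was −0.87 ± 0.41 with DMSO and −2.25 ± 0.94 with erlotinib (n = 3 each). Here too erlotinib 4 stood apart, at −3.33 against −1.61 and −1.80 in the other erlotinib libraries. These are ratios of signal not divided by gene length, so they show a shift between conditions and not which gene had the higher level. They are descriptions, and their differences were not tested. With a pseudocount of 10 the log2 fold changes of ETV1 and ETV5 were alike (−4.22 and −4.18), so the shift of their ratio depends on the pseudocount. ETV1 with erlotinib rests on 5, 16 and 19 reads.

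**Figure D2:**
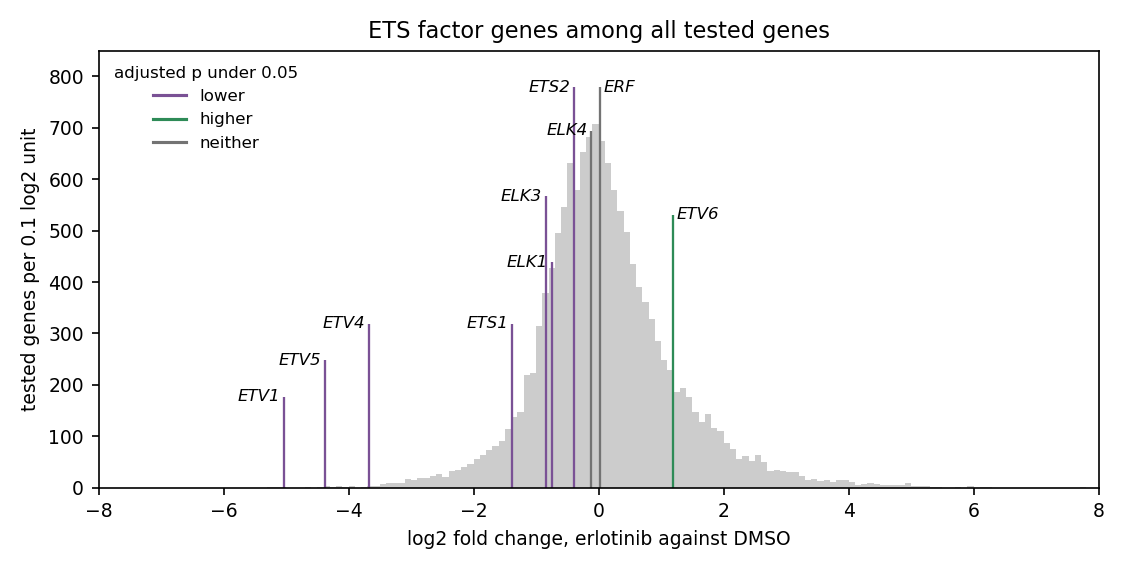
Histogram of the log2 fold changes (erlotinib against DMSO) of the 14215 tested genes in steps of 0.1, with a vertical line for each ETS factor, whose height only spaces the labels, coloured by whether it was lower, higher or neither at an adjusted p under 0.05. ETV1, ETV5 and ETV4 stand in the far left tail at −5.04, −4.38 and −3.67, and the other 7 factors lie within the bulk.

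RefSeq promoter windows (GRCh38.p14, 250 bases before to 50 after an annotated start) were matched by symbol for 7 of the 10 factors, with 16 windows in all. ETV4, ETV5 and ETS1 had none. The windows were searched on both strands for the 8-letter sites of CIC (TGAATGAA, TGAATGGA, TCAATGAA and TCAATGGA), a high-affinity ETS site (CCGGAAGT), the AP-1 site (TGANTCA) and the CArG box of SRF. None of these motifs contains another. ETV1 held TGAATGGA, in the window of the outermost of its 6 annotated starts, 125 bases before that start, and ELK4 held CCGGAAGT, 22 bases before its start. Of all 35116 windows, 1.03% held TGAATGGA and 4.14% held CCGGAAGT. TGAATGAA was in 1.65%, TCAATGAA in 0.718%, TCAATGGA in 0.51%, TGANTCA in 7.71% and the CArG box in 1.29%, and no window of a member held any of these. Outside the 10 factors, sites lay in listed genes of either direction. TGAATGAA was in the windows of EPHA2, KRT8 and BCL2L1, which fell, of ATXN1 and FOSB, which were higher, and of SPDEF. TGAATGGA was in that of CIC, and TCAATGGA at 2 places in that of DUSP6. CArG boxes were in those of EGR1 (2 places), SRF (2 places), EGR2, and ATXN1, NKX2-1 and DET1, the last 3 being higher. CCGGAAGT was in 6 further listed genes, BCL2L1, CUL4A, GABPA, KRT8, NRAS and SHC1, and TGANTCA in CD14, ELF4, GABPB1, MMP7, MRTFB, PLAUR, SFTPB, SHC1 and SPRED2. The bases upstream of the start of ETV1, of ELK4 and of EGR1, a textbook target of the ternary complex factors, are shown because they hold the sites of the repressor, the family and the partner SRF next to genes with values given here. Capitals mark the motif, and each run is 5′ to 3′ on the strand of the gene, ending at the base before the start. They are chr7:13991426-13991675 (minus strand), chr1:205632012-205632261 (minus strand) and chr5:138465229-138465478 (plus strand). A match describes letters in the window, not a bound site.
ETV1 upstream: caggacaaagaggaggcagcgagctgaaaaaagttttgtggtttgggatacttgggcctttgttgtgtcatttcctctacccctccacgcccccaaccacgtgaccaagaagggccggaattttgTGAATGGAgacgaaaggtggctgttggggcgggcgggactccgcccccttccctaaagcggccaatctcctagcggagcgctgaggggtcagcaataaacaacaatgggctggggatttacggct
ELK4 upstream: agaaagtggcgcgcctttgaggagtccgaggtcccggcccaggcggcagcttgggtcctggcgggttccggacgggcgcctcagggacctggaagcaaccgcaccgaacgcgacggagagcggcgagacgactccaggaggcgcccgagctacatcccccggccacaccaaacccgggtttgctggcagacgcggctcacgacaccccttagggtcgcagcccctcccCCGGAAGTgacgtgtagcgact
EGR1 upstream: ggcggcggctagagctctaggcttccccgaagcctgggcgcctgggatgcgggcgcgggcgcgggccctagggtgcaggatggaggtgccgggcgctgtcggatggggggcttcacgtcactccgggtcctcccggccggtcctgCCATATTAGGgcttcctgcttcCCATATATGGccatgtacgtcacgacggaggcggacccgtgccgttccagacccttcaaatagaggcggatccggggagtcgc

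Of the ternary complex factors, ELK1 and ELK3 fell and ELK4 did not pass the test. ELK3 (Entrez 2004, chr12:96194375-96269824), which represses transcription until ERK phosphorylates it, had a signal of 5663, 6630 and 6255 with DMSO and 3236, 3482 and 3579 with erlotinib. The groups did not overlap. The mean of 6183 ± 488 went to 3432 ± 176 (SD, n = 3 each), 55.5% of the DMSO level, and the log2 fold change was −0.85 (SE 0.07, limma adjusted p = 1.1e-09).

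ELK1 (Entrez 2002, chrX:47635520-47650604), an activator that recruits Mediator once phosphorylated, had a signal of 1256, 1172 and 1126 with DMSO and 675, 745 and 693 with erlotinib. The DMSO libraries were all higher than the erlotinib libraries. The mean went from 1185 ± 65.8 to 704 ± 35.9 (SD, n = 3 each), 59.4% of the DMSO level, a log2 fold change of −0.75 (SE 0.09, limma adjusted p = 1.6e-07). Sequences like the ELK1 transcript lie on chromosome 14, where 94.7% of it aligned at 92.4% identity. That is short of the 97% identity set here for a copy, and whether they took reads of ELK1 was not tested.

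ELK4 (Entrez 2005, chr1:205607943-205632011), also called SAP-1, had a signal of 2809, 3691 and 3023 with DMSO and 2910, 2885 and 2904 with erlotinib. DMSO 1 was below the erlotinib libraries and DMSO 2 well above them, so the groups overlapped. The log2 fold change was −0.12 (SE 0.08, 95% interval −0.29 to 0.05, limma adjusted p = 0.2). It was −0.20 without DMSO 1 (limma adjusted p = 0.036), which would call it lower, and 0.06 when libraries were scaled to their total reads (limma adjusted p = 0.56). The log2 ratio of ELK3 to ELK4 went from 0.97 ± 0.11 with DMSO to 0.24 ± 0.08 with erlotinib (n = 3 each) without overlap, whereas the values of the ratio of ELK1 to ELK3 overlapped (−2.38 ± 0.18 and −2.28 ± 0.07).

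ETS1 (Entrez 2113, chr11:128458765-128587558), a factor of lymphoid, endothelial and invasive tumour cells, had the highest signal of the 10. It was 23711, 24248 and 23228 with DMSO and 8539, 9268 and 9451 with erlotinib. Each group was tight, and they lay far apart. The mean of 23729 ± 510 went to 9086 ± 482 (SD, n = 3 each), 38.3% of the DMSO level, with a log2 fold change of −1.39 (SE 0.06, limma adjusted p = 5.8e-14).

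ETS2 (Entrez 2114, chr21:38805183-38824955), the close paralog of ETS1, changed much less. Its signal was 957, 1017 and 955 with DMSO and 749, 669 and 800 with erlotinib. The groups did not overlap, and ETS2 kept 75.8% of the DMSO level (976 ± 35.2 against 740 ± 66.1, SD, n = 3 each). The log2 fold change was −0.40 (SE 0.09, limma adjusted p = 0.00057). With libraries scaled to their total reads, which moved the median of all genes up by 0.18, the value was −0.22 (limma adjusted p = 0.041). The log2 ratio of ETS1 to ETS2 was 4.60 ± 0.03 with DMSO and 3.62 ± 0.15 with erlotinib (n = 3 each).

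Of the repressors, ETV6 rose and ERF did not pass the test. ETV6 (Entrez 2120, chr12:11649674-11895377), a repressor that polymerises through its pointed domain and is a fusion partner in leukaemia, had a signal of 1015, 1055 and 1037 with DMSO and 2287, 2439 and 2360 with erlotinib. All erlotinib libraries were above all DMSO libraries. The mean rose 2.28-fold, from 1036 ± 19.9 to 2362 ± 76.3 (SD, n = 3 each), with a log2 fold change of 1.19 (SE 0.07, 95% interval 1.03 to 1.34, limma adjusted p = 9.4e-12). ETV6 was thus the sole factor of the 10 that passed the test upwards.

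ERF (Entrez 2077, chr19:42247569-42255128), which represses ETS target genes while it is in the nucleus, had a signal of 1480, 1231 and 1266 with DMSO and 1443, 1217 and 1376 with erlotinib. The libraries were mixed in order, with the lowest value in erlotinib 5 and the highest in DMSO 1. The log2 fold change was 0.02 (SE 0.09, 95% interval −0.17 to 0.21, limma adjusted p = 0.84).

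**Figure D3:**
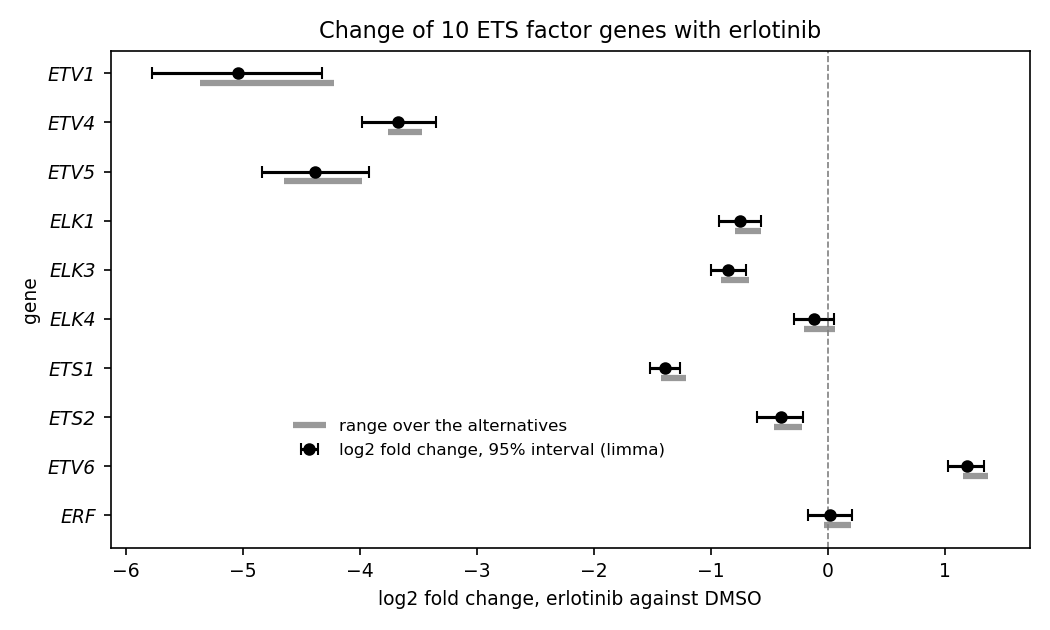
Log2 fold change of each ETS factor (erlotinib against DMSO, limma on log2(signal + 1)), with 95% intervals as black bars and the range over the alternative settings as grey bars. The intervals of the PEA3 genes lie wholly below −3, that of ETV6 lies from 1.03 to 1.34, and those of ELK4 and ERF include 0.

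Levels of different genes were compared after dividing the signal by the length of the exons of each gene in GENCODE. With DMSO, the signal per kb was 3319 for ETS1 and 1331 for ELK3, then 406 for ERF, 349 for ELK1, 260 for ELK4, 230 for ETV5, 208 for ETV4, 196 for ETS2, 143 for ETV6 and 42.2 for ETV1. With erlotinib the order was ETS1 (1271), ELK3 (739), ERF (412), ETV6 (327), ELK4 (238), ELK1 (207), ETS2 (149), ETV4 (16.2), ETV5 (11.7) and ETV1 (1.33). The PEA3 genes thus went from levels like those of ELK4 and ETS2, or below in the case of ETV1, to the bottom of the list. Neighbours in these orders whose libraries overlapped were ELK4 and ETV5, and ETV4 and ETS2, with DMSO, and ETV4 and ETV5 with erlotinib. With these lengths the libraries of all other neighbouring pairs were apart. The orders move with the gene lengths used. With the longest transcript as length, the libraries of ETV4 and ETV5 overlapped with DMSO as well.

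The 28 ETS genes of the human family that were listed, the 10 factors and 18 others, had a summed signal per kb of 10037 ± 244 with DMSO and 8728 ± 92.6 with erlotinib (SD, n = 3 each). The makeup of that sum changed. The PEA3 genes held 4.78 ± 0.087% of it with DMSO and 0.334 ± 0.077% with erlotinib. ETS1 and ETS2 held 35 ± 0.058% and 16.3 ± 0.65%, and the ternary complex factors 19.3 ± 1.1% and 13.6 ± 0.32%. ETV6 and ERF went from 5.47 ± 0.42% to 8.46 ± 0.36%. The largest gain was that of ELF3, an epithelial ETS factor outside the 10, from 6.87 ± 0.4% to 25.6 ± 0.38% (n = 3 each), and EHF, its close relative, went from 4.35 ± 0.27% to 10.3 ± 0.15%. These shares are descriptions, with no test, and they move with the gene lengths used.

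**Figure D4:**
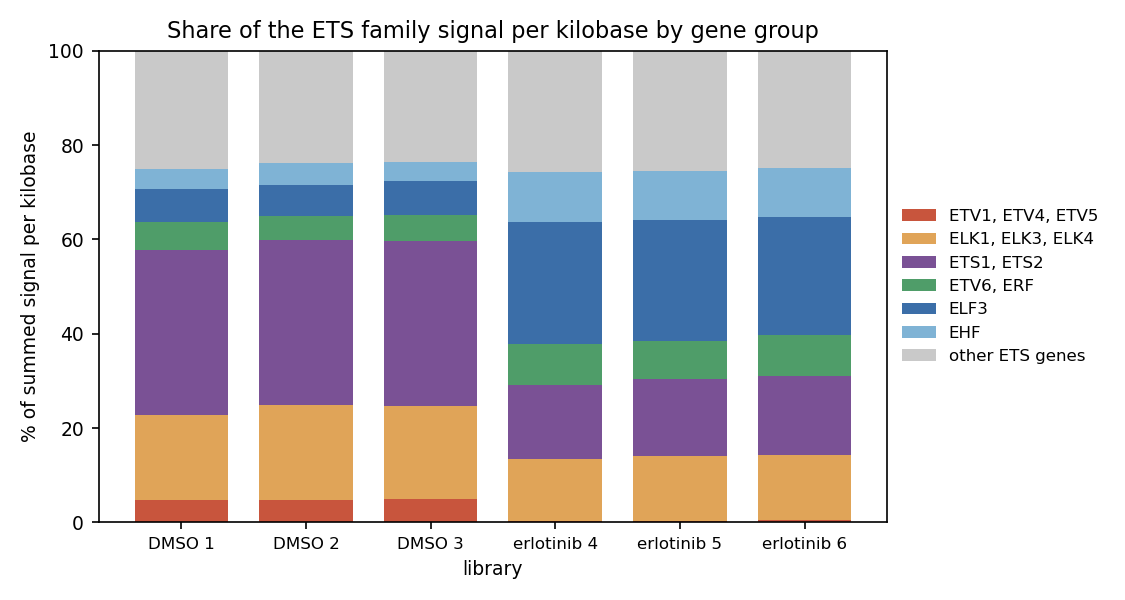
Share of the summed ETS family signal per kb (percent, stacked to 100) held by groups of ETS genes in each of the 6 libraries. The share of ETV1, ETV4 and ETV5 goes from 4.78% on average with DMSO to 0.334% with erlotinib, that of ETS1 and ETS2 from 35% to 16.3%, and that of ELF3 from 6.87% to 25.6%.

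Of the 18 other ETS genes, 9 passed the filter, and of these 1 fell, 3 rose and 5 did not pass the test, with a median log2 fold change of 0.16, whereas 70.7% of all tested genes were called in either direction. ELF3, which is induced in differentiating epithelium, had a signal of 5024, 4754 and 5084 with DMSO and 16075, 16309 and 15878 with erlotinib. It rose 3.25-fold without overlap, with a log2 fold change of 1.70 (SE 0.06, limma adjusted p = 1.5e-15). EHF rose from 2894 ± 247 to 5954 ± 31.2 (n = 3 each, log2 fold change 1.04, limma adjusted p = 3.1e-11), and ELF1, a broadly expressed factor, rose by 0.34 log2 units. ELF4 fell, from 6898 ± 329 to 5171 ± 92.3 (log2 fold change −0.41, limma adjusted p = 6.3e-06). SPDEF, a factor of secretory cells, lay just outside the threshold (−0.42, limma adjusted p = 0.08). The adjusted p of SPDEF was 0.041 without DMSO 2 and 0.047 with no variance trend (limma). ETV3, ETV7, GABPA and ELF2 were the others that did not pass. GABPA has a near-identical sequence on chromosome 7 and overlaps ATP5PF, so its value is uncertain.

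The log2 ratio of ELF3 to ETS1, on signal not divided by length, went from −2.26 ± 0.08 with DMSO to 0.83 ± 0.08 with erlotinib (n = 3 each). SPI1, the master factor of myeloid cells, was at 11, 12 and 4 reads with DMSO and at 0 reads in each erlotinib library. It was below the filter and so was not tested in the main fit. ERG and ELF5 were at 0 in every library, and FLI1 did not exceed 1.98. ETV2, ETV3L, FEV, SPIB and SPIC were above 0 in some library and below the filter.

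The regulators that act on ETS proteins or genes changed by less than the PEA3 genes. Of 14 such partners and regulators, all tested, 6 fell, 6 rose and 2 did not pass the test, with a median log2 fold change of 0.06, beside 35.4% lower and 35.3% higher among all tested genes. CIC, the repressor of the PEA3 genes, had a signal of 2166, 1563 and 2009 with DMSO and 2248, 2181 and 2283 with erlotinib. DMSO 2 was the lowest and the groups did not overlap. The log2 fold change of CIC was 0.24 (SE 0.09, limma adjusted p = 0.028). Without DMSO 2 it was 0.10 (limma adjusted p = 0.14). Without erlotinib 4 or erlotinib 6 it was 0.24 or 0.22, with an adjusted p of 0.078 or 0.082 (limma). With all libraries but no variance trend CIC was not called either (0.24, limma adjusted p = 0.16). Its cofactor ATXN1 rose by 0.49 (limma adjusted p = 3e-05). ATXN1L, another cofactor, was lower by a narrow margin (−0.15, limma adjusted p = 0.043). It was not called without DMSO 3, erlotinib 4, 5 or 6 (adjusted p 0.054 to 0.19, limma) or by edgeR (adjusted p 0.065). In limma it was not called with TMM factors (adjusted p 0.058), no filter (0.054) or no variance trend (0.094). With libraries scaled to total reads it was 0.03 (limma adjusted p = 0.72).

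COP1 and DET1 belong to the ubiquitin ligase that degrades PEA3 proteins, with DDB1 and CUL4A. DET1 rose most of the 14, from 90.3 ± 7.97 to 170 ± 35.8 (n = 3 each, log2 fold change 0.89, limma adjusted p = 0.00035). COP1 did not pass the test (−0.09, limma adjusted p = 0.58), and without DMSO 2 it was −0.26 (limma adjusted p = 0.046). DDB1 fell by 0.40 and CUL4A fell by 0.53 on the log2 scale. GABPB2, a partner of GABPA, fell most, from 197 ± 24.0 to 123 ± 15.6 (n = 3 each, log2 fold change −0.67, limma adjusted p = 0.0015). EP300, a coactivator, lay just outside the threshold (0.21, limma adjusted p = 0.057). It was called higher by edgeR (adjusted p 0.036), with TMM factors in limma (0.044), with a pseudocount of 10 (0.047), with libraries scaled to total reads (0.39, limma adjusted p = 0.0021), and without DMSO 2, erlotinib 4 or erlotinib 5 (adjusted p 0.0033, 0.041 and 0.035, limma). SRF, the partner of the ternary complex factors, was lower by the test (−0.20, limma adjusted p = 0.022). SRF was not called without DMSO 1 (limma adjusted p = 0.1), DMSO 3 (0.068) or erlotinib 4 (0.11). Nor was it called with no variance trend (0.08) or with libraries scaled to total reads (−0.02, limma adjusted p = 0.83). MRTFA and MRTFB, which compete with these factors for SRF, rose by 0.29 and 0.42, and without a variance trend MRTFA was not called (limma adjusted p = 0.052). ATXN1, CUL4A, MRTFA and GABPB1, and likewise SHC1, MAP2K1, JUNB and PLAU, overlap another gene with reads, so their values share the uncertainty given for ETV4.

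Genes of the RAS-ERK cascade were called in either direction. Of its 16 listed genes 15 were tested, 7 fell, 4 rose and 4 did not pass the test, and the median log2 fold change was −0.05. Of all tested genes 35.4% were lower and 35.3% higher, so these counts set the cascade little apart. The largest fall was that of the kinase gene MAP2K1, from 2533 ± 80.4 to 1355 ± 11.9 (n = 3 each, log2 fold change −0.90, limma adjusted p = 4.3e-10). A sequence on chromosome 8 matched 99.9% of the MAP2K1 transcript at 94.1% identity, and whether it took reads was not tested. The largest rise was that of MAPK3, which encodes ERK1, from 484 ± 85.03 to 1042 ± 54.7 (log2 fold change 1.12, limma adjusted p = 2.2e-08). SHC1 was the call nearest to the threshold (−0.17, limma adjusted p = 0.046), and it was not called when DMSO 1, DMSO 3, erlotinib 4 or erlotinib 5 was left out (adjusted p 0.069 to 0.19, limma), by edgeR or DESeq2 (adjusted p 0.069 and 0.057), in limma with TMM factors (0.065), no filter (0.057) or no variance trend (0.12), or with libraries scaled to total reads, where its direction turned (0.01, adjusted p 0.9). HRAS was listed at 0 in every library, and an identical stretch lies on an alternate contig.

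Genes that ERK signalling switches on fell with the PEA3 group. Of 10 listed ERK output genes, all tested, 9 fell, 8 of them by at least 1 log2 unit, and 1 did not pass the test. Of all tested genes 35.4% were lower, and 10.8% by at least 1 log2 unit. The median log2 fold change of the list was −2.01. Earlier results of these data were known when this list was written, so the list is not independent evidence. The study itself names DUSP6 and CCND1, and EGR1 of the next list, as targets of the co-activators YAP and TAZ that erlotinib suppressed. Through which of these inputs the genes fell was not tested. DUSP6, the phosphatase that inactivates ERK, had a signal of 1387, 1418 and 1368 with DMSO and 67.4, 63.4 and 74.0 with erlotinib, far apart without overlap, with a log2 fold change of −4.33 (SE 0.12, limma adjusted p = 5.1e-17). Its fall lay between those of ETV5 and ETV4. SPRY4, an inhibitor of receptor signalling, changed by −3.95 and CCND1, the cyclin of G1, by −3.23 (limma adjusted p = 2.7e-12 and 4.6e-19). The smallest called change was that of SPRY2 (−0.25, limma adjusted p = 0.035). SPRY2 lost its call without DMSO 1, erlotinib 4 or erlotinib 6 (limma adjusted p = 0.066, 0.063 and 0.2). Nor was it called with no variance trend (0.052) or with libraries scaled to total reads (−0.07). EPHA4 did not pass (0.39, limma adjusted p = 0.34).

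The immediate-early genes that SRF and the ternary complex factors control were called in both directions, as were all tested genes (35.4% lower, 35.3% higher). Of 10 listed, 7 were tested, 4 fell and 3 rose, with a median of −0.29. EGR1, whose upstream bases are printed above, went from 978, 994 and 985 with DMSO to 256, 222 and 229 with erlotinib, without overlap, a log2 fold change of −2.06 (SE 0.11, limma adjusted p = 3.7e-13). FOS fell, from 72.3 ± 20.1 to 29.6 ± 4.70 (n = 3 each, −1.23, limma adjusted p = 0.001). NR4A1, an orphan nuclear receptor, rose most (1.41, SE 0.42, limma adjusted p = 0.0051), though at a low signal of 37.7 ± 25.0 and 85.3 ± 21.4 (n = 3 each). It was 0.73 without DMSO 1 and 1.89 without DMSO 3, and was not called without a variance trend (limma adjusted p = 0.084). JUNB rose by 0.86. FOSB was called higher (0.94, limma adjusted p = 0.025), but not without DMSO 2 (0.49, adjusted p 0.16) or erlotinib 5 (0.78, adjusted p 0.1). With no filter or no variance trend FOSB was not called either (limma adjusted p = 0.056 and 0.094). IER2 and MCL1 fell by 0.33 and 0.29, but with libraries scaled to total reads neither was called (−0.15 and −0.11, limma adjusted p = 0.08 and 0.096). EGR2, EGR3 and IER3 were below the filter. IER3 has near-identical sequences on alternate contigs, so its low value is uncertain.

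Genes commonly given as targets of ETS proteins were called in either direction at shares near those of all tested genes (35.4% lower, 35.3% higher). Of 9 listed, 7 were tested, 2 fell, 2 rose and 3 did not pass the test, and the median log2 fold change was −0.21. MMP7, a matrix protease of epithelial cells, had a signal of 53.3, 30.6 and 22.5 with DMSO and 660, 647 and 597 with erlotinib. It rose 17.9-fold without overlap (log2 fold change 4.21, SE 0.23, limma adjusted p = 9.1e-13). ITGAV, an integrin subunit, rose by 0.48. PLAUR, the urokinase receptor, fell most, from 1274 ± 74.3 to 752 ± 70.5 (n = 3 each, −0.76, limma adjusted p = 2.2e-07), and BCL2L1 fell by 0.42. PLAU, its ligand urokinase, lay just outside the threshold (−0.14, limma adjusted p = 0.083) and was lower without DMSO 1 (−0.21, limma adjusted p = 0.0078). MMP9 and MMP14 had signals of 15.8 to 33.2 and did not pass the test.

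**Figure D5:**
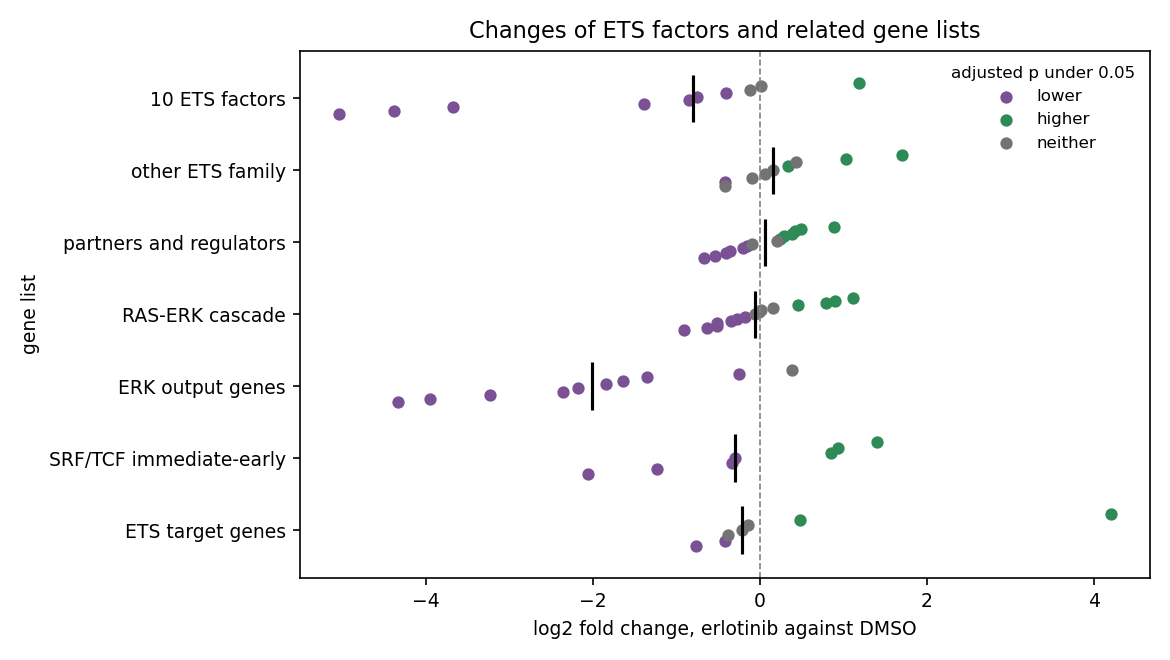
Log2 fold changes (erlotinib against DMSO) of the tested genes of each list, 1 point per gene coloured by whether it was lower, higher or neither at an adjusted p under 0.05, with the median of each list as a black bar. The medians are −0.80 for the 10 ETS factors, 0.16 for the other ETS genes and −2.01 for the ERK output genes, and the point furthest right is MMP7 at 4.21.

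The genes whose log2 signal followed that of a PEA3 gene most closely over the 6 libraries were found among the 11068 genes whose mean signal was 100 or more. For ETV1 they were SLC19A1 (Pearson r = 0.9988), UGGT1 (0.9977) and DESI1 (0.9969). For ETV4 they were SUMO3 (0.9997), HSPA4L (0.9995) and HSP90AB1 (0.9995), and for ETV5 ANKRD18B (0.9993), TM2D2 (0.9993) and THRIL (0.9984). These correlations describe 6 libraries in 2 groups, so that any gene with a clear fall scores high. In all, 108 genes had r above 0.99 with ETV1, 878 with ETV4 and 222 with ETV5. The neighbours fell by much less than the PEA3 genes. Their log2 fold changes were −1.01, −0.74 and −0.81 for those of ETV1, −0.86 to −1.78 for those of ETV4, and −1.35, −0.50 and −2.16 for those of ETV5.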

How the data were processed

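RNA-seq of 6 libraries was used. The authors mapped reads to GRCh38 with Bowtie2 2.3.4, an aligner that does not split reads across introns, and counted them per gene with featureCounts 1.6.3 (DESeq2 1.18.1 is also named, per the labels). The deposited values are signal, reads divided by a size factor of the library. Dividing by the step of each library gave whole reads for 100% of the values within 0.01, with size factors of 0.8815 to 1.084. The 14215 genes whose mean signal was 10 or more were tested with limma 3.58.1 (trend, log2(signal + 1), no covariates, two-sided, threshold 0.05). Fold changes on that scale understate those of scarce genes. The fit across all genes was tested on simulated data. The 475 genes without a symbol were kept. Some single genes are counted in their list but not reported here.

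All 10 members are named. Of the lists, members with the largest fall and rise and those near the threshold are named. FOS, ITGAV, IER2, MCL1 and further list genes outside that rule were picked with their values in view. The members and lists were chosen with earlier results of these data known. Copies were searched for with minimap2 2.31-r1302 in chromosomes and 261 alternate contigs (at least 90% of the transcript at 97% identity or more). Sequences below these limits were not counted as copies, and whether they took reads was not tested. Positions and promoters are from RefSeq GRCh38.p14, lengths from GENCODE.

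The alternatives were edgeR 4.0.16 and DESeq2 1.42.0 on the recovered reads, scaling to total reads, TMM factors, pseudocounts of 0.1 and 10, no filter, at least 10 reads in every library, no variance trend, an adjusted p under 0.01 and each library left out. R 4.3.3, Python 3.11.15 and matplotlib 3.10.9 were used.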

Additional observations from a re-analysis of the deposited data

How the results depend on the processing

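Over the 16 alternatives the number of the 10 ETS factors called lower was 6 to 8 and the number called higher was 1 in each. The 6 arose with at least 10 reads in every library, where ETV1 was not tested, and the 8 without DMSO 1, where ELK4 was called. Of 159 log2 fold changes of the factors, 154 kept their direction and their side of the threshold. ELK4 was −0.20 without DMSO 1 and 0.06 with scaling to total reads, and lay between −0.20 and −0.01 with a library left out. ERF, not called, turned to −0.03, −0.01 and −0.03 without DMSO 2, DMSO 3 or erlotinib 4, lay between −0.03 and 0.10 with a library left out, and was 0.20 with scaling to total reads (limma adjusted p = 0.05, not called). All tested genes called lower numbered 3955 to 5096, and those called higher 4323 to 6156. Scaling to total reads gave 5 other ETS genes higher in place of 3, 3 partners and regulators lower in place of 6, and 2 immediate-early genes lower in place of 4. Without a variance trend 1 immediate-early gene was higher in place of 3. The other ETS genes called lower numbered 2 with no filter and with no variance trend, and 1 to 2 with a library left out. With the longest transcript as length, the PEA3 share of the ETS family signal was 5.56% with DMSO and 0.387% with erlotinib. Depth limits ETV1 with erlotinib, which has 5 to 19 reads. No paired analysis was possible because the sample titles number both groups 1 to 3, whereas the erlotinib columns carry the numbers 4 to 6 and could not be matched to single numbered samples.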
